A study of Mus musculus with 18 samples.

Results

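The interferon-inducible GTPases are enzymes that cells make in quantity after exposure to interferons, and 8 of them were followed here in mouse colon epithelium: the guanylate-binding proteins Gbp2, Gbp3, Gbp4 and Gbp6 and the immunity-related GTPases Igtp, Iigp1, Iigp2 and Tgtp. They were chosen by name, as 8 of the 30869 gene symbols on the array, and every probe that carries one of these symbols was taken. That gave 13 probes, of which 10 passed the detection filter (detected, with p under 0.05 against the negative controls, on 4 or more arrays), so that 6 of the 8 genes could be tested. RNA came from colon epithelial cells sorted as EpCAM+ cells without CD45, CD3 and a macrophage marker, and it was read on Illumina MouseWG-6 BeadChips, on which beads carrying a probe of fixed sequence bind the labelled transcript. The mice were wild-type (WT) or Mbd2KO animals, on a C57BL/6 background. The Mbd2KO mice lack the methyl-CpG-binding protein Mbd2 in every cell and not in the epithelium alone, so that the sorted cells came from a host whose immune cells lacked it too. Both genotypes were adult and matched for age and sex, were littermates housed together wherever possible, and were either untreated (naive) or given 2% dextran sulphate sodium (DSS) in drinking water for 6 days, which injures the gut lining and causes colitis. Each of the 4 groups, Naive_WT, Naive_KO, DSS_WT and DSS_KO, held 4 samples, a sample could pool several mice, and the samples came from several experiments that the labels do not tie to single samples.

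Guanylate-binding proteins (GBPs) and immunity-related GTPases (IRGs) are large GTPases that assemble on the membranes of vacuoles holding bacteria or parasites. IRGs with the usual GKS motif, such as Tgtp and Iigp1, coat and break the vacuole. Those with a GMS motif, Igtp (also called Irgm3) and Iigp2 (now Irgm2), sit on the cell's own membranes and keep the others inactive there. GBPs bind the exposed vacuole or the bacterial surface and help inflammasomes to sense bacterial lipopolysaccharide. Interferons switch these genes on through factors that bind short sequences near the gene start, the gamma-activated site (GAS) and the interferon-stimulated response element (ISRE), the second of which is read by Irf1 and by complexes that hold Irf9.

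The names on the array are old, and Gbp6 needs care. The gene that the array calls Gbp6 carries the Entrez identifier of the gene now named Gbp7, and it is written here as Gbp6 because that is its label. The gene now named Gbp6 is on the array as Mpa2l, and its probe was detected on 0 of 18 arrays. Tgtp is now Tgtp1, and the annotation also holds a closely similar gene, Tgtp2, from which this probe may not separate it. Positions are those of the deposited table, which does not state a genome build. The brightest probes of Gbp2 (chromosome 3, 142300671 to 142300720), Gbp3 (chromosome 3, 142235597 to 142235646) and Gbp6 (chromosome 3, 142484560 to 142484609) lie in 1 stretch of chromosome 3, and those of Igtp (chromosome 11, 58020808 to 58020857), Iigp2 (chromosome 11, 58038682 to 58038731) and Tgtp (chromosome 11, 48799202 to 48799251) lie on chromosome 11. The 2 Gbp3 probes are placed 275 kb apart, so the positions within this table may not come from 1 build. None of the 10 tested probes shared a run of 25 bases with another probe of the table.

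The stretch just before the start of each gene is shown because all 6 tested genes carry interferon-response letters there. The 120 bases before the RefSeq start (GRCm38.p6) are given 5′ to 3′ on the gene's strand, with the letters of GAS (TTCNNNGAA) and of ISRE (GAAANNGAAA or its reverse complement TTTCNNTTTC) in capitals.
Gbp2, chr3:142620543-142620662, plus strand: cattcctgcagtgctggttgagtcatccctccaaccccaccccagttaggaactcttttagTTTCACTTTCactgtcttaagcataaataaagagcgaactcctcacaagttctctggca
Gbp3, chr3:142559924-142560043, plus strand: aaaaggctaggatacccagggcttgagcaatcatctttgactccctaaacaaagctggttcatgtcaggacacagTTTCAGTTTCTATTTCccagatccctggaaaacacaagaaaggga
Gbp6 (now Gbp7), chr3:142530216-142530335, plus strand: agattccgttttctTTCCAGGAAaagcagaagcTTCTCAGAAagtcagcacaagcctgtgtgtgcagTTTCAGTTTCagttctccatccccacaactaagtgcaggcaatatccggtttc
Igtp, chr11:58199436-58199555, plus strand: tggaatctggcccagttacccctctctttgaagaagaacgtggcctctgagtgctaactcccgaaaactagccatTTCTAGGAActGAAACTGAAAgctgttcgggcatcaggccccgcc
Iigp2 (now Irgm2), chr11:58214857-58214976, plus strand: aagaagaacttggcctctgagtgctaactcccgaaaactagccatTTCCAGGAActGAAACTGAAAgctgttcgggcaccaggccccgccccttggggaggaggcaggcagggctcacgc
Tgtp (now Tgtp1), chr11:48992247-48992366, minus strand: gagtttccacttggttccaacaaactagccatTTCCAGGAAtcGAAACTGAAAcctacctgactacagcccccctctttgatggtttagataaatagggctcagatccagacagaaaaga

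In the 3 IRG genes, Igtp, Iigp2 and Tgtp, GAS was followed by ISRE with 2 bases between them, and in the 3 GBP genes it was not. Gbp6 held 2 GAS matches and 1 ISRE match farther apart, Gbp2 held 1 ISRE match, and Gbp3 held 2 ISRE matches that overlap each other. A second RefSeq start of Gbp3 held neither. Over the 32851 RefSeq windows of 300 bases (250 before the start and 50 after it), GAS letters occurred in 8.3% and ISRE letters in 3.44%, with both strands counted and both motifs together in 0.454%. GAS and ISRE with 2 bases between them, a spacing that was chosen after these sequences had been read, occurred in 5 windows, those of Igtp, Irgm2, Tgtp1, Tgtp2 and Gm12185. The windows differed in CpG dinucleotides, the pair of letters that is methylated and that Mbd2 binds when it is: there were 1 in the window of Tgtp, 2 each in Gbp2 and in Gbp3, 8 in Gbp6 and 9 each in Igtp and Iigp2, against a median of 7 over all windows. DNA methylation and factor binding were not measured in these data.

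**Figure D1:**
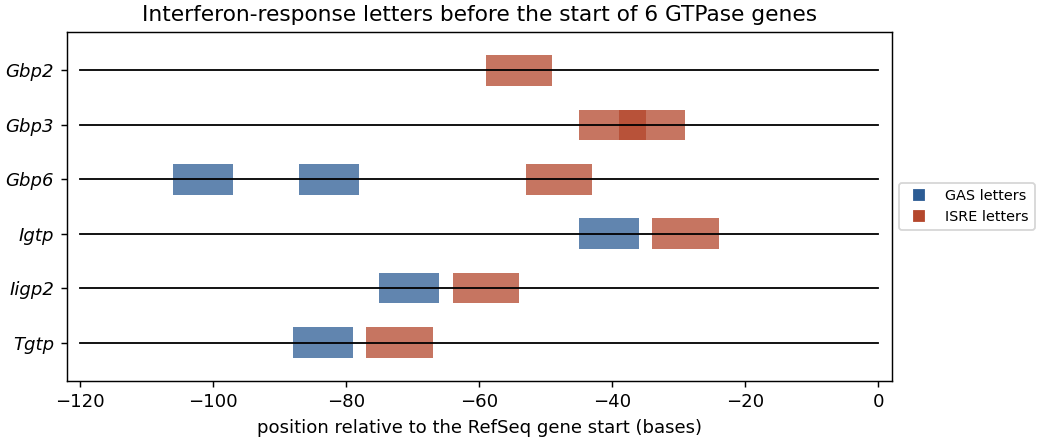
Position of GAS letters (blue) and ISRE letters (red) in the 120 bases before the RefSeq start of the 6 tested genes; the x axis gives bases relative to the start. GAS and ISRE stand 2 bases apart in Igtp, Iigp2 and Tgtp, and the 2 ISRE matches of Gbp3 overlap (darker red).

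Signals were close to background for most probes on these arrays: the median probe read 106 to 146 intensity units where negative controls averaged 101 to 134, and 18851 to 20618 of the 45281 probes were detected on each array. The Mbd2 probe was detected on 0 arrays of any group, WT included, so it could not check the genotype labels. Epithelial markers were bright on average (12 of 12 tested, mean of 11.95 to 12.38 on the log2 scale in each sample). Epcam, which encodes the marker of the sort, was dimmer, with group means of 6.83 to 7.45, and so was Slc26a3, at 7.82 to 9.57. Myeloid markers (9 of 15 tested) were low in naive samples and higher with DSS, at 6.18 to 6.83 in Naive_WT, 6.43 to 7.47 in Naive_KO, 7.57 to 8.47 in DSS_WT and 8.22 to 8.31 in DSS_KO. Neutrophil markers ran from 4.46 to 4.76 in naive samples and from 5.52 to 8.49 with DSS, and T and NK cell markers (7 of 12 tested) from 5.56 to 5.91 and from 6.00 to 6.28. Ptprc, which encodes the CD45 that the sort excludes, did not pass the detection filter. Of the genes for the CD3 that the sort also excludes, Cd3e did not pass it, while Cd3d and Cd3g did and were higher in DSS_WT than in Naive_WT (adjusted p = 0.0253 and 0.00355). Smooth muscle markers (5 of 6 tested) stood at 9.26 to 10.15 in Naive_WT, 8.82 to 9.31 in Naive_KO, 9.67 to 10.31 in DSS_WT and 7.94 to 9.15 in DSS_KO, and endothelial markers (9 of 9 tested) at 6.55 to 6.95, 6.13 to 6.49, 6.88 to 7.37 and 6.09 to 6.46. Fibroblast markers (7 of 7 tested) ran from 7.22 to 7.99 in naive samples and from 7.36 to 8.62 with DSS. In RNA from sorted cells, more cells of a type and more RNA in each cell cannot be told apart.

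The levels of the 6 tested genes followed 1 order at its ends. Naive_WT had the lowest group mean and DSS_KO the highest for Gbp2, Gbp3, Gbp6, Igtp, Iigp2 and Tgtp alike, with Naive_KO and DSS_WT between them. All values below are normalized signals on the log2 scale, where 1 unit is a 2-fold change, and a gene with several tested probes is given by the brightest one. Samples are named by the replicate numbers of the labels.

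Igtp, the regulator that keeps other IRGs off the cell's own membranes, measured 7.23, 6.86, 7.13 and 7.01 in the Naive_WT replicates 9 to 12, and 11.23, 8.90, 10.25 and 8.22 in the Naive_KO replicates 13 to 16. It measured 9.51, 8.61, 10.34 and 9.71 in the DSS_WT replicates 1 to 4, and 11.73, 10.67, 12.30 and 11.66 in the DSS_KO replicates 5 to 8. Every Naive_KO sample was above every Naive_WT sample and every DSS_KO sample was above every DSS_WT sample, while Naive_KO and DSS_WT overlapped.

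Iigp2, the other regulator of the same subgroup, ran from 7.68 to 8.13 in Naive_WT (7.93 ± 0.19, SD, n = 4), and it measured 11.13, 9.46, 10.30 and 8.60 in the Naive_KO replicates 13 to 16. It ran from 8.75 to 9.80 in DSS_WT (9.40 ± 0.47, SD, n = 4) and from 10.19 to 11.25 in DSS_KO (10.80 ± 0.46, SD, n = 4). The highest Naive_KO sample stood among the DSS_KO samples and the lowest stood below every DSS_WT sample.

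Tgtp, an IRG that coats vacuoles, was not detected on any of the 4 Naive_WT arrays, and it was detected on 2 of 4 Naive_KO, 3 of 5 DSS_WT and 5 of 5 DSS_KO arrays. Its signals of 4.52, 4.40, 4.48 and 4.54 in Naive_WT were background. In Naive_KO it measured 6.90, 4.84, 6.41 and 4.64 in replicates 13 to 16, in DSS_WT 4.77, 4.86, 6.44 and 5.93 in replicates 1 to 4, and in DSS_KO 7.59, 6.91, 8.28 and 8.08 in replicates 5 to 8. Replicates 14 and 16 of Naive_KO and 1 and 2 of DSS_WT were thus near background, and DSS_KO was the group in which every sample was clearly above it. A second Tgtp probe, designed on a predicted transcript and given no position, stayed between 4.43 and 5.12 in all samples.

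Gbp2, a GBP recruited to bacterial vacuoles, measured 6.62, 7.01, 7.44 and 6.85 in the Naive_WT replicates 9 to 12, and 10.16, 8.12, 9.76 and 7.76 in the Naive_KO replicates 13 to 16. With DSS it measured 10.67, 8.58, 10.44 and 9.81 in the DSS_WT replicates 1 to 4, and 11.11, 10.51, 12.14 and 11.92 in the DSS_KO replicates 5 to 8. The lowest DSS_KO sample lay below the highest DSS_WT sample, so these groups overlapped. Of its 2 other probes, 1 was not detected on any array and 1 was dim, detected on 1 of 5 DSS_WT and 4 of 5 DSS_KO arrays and on none of the naive ones.

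Gbp3 gave nearly the same values on its 2 probes. On the brighter one it ran from 5.57 to 6.07 in Naive_WT, from 6.31 to 8.28 in Naive_KO, from 7.01 to 8.34 in DSS_WT and from 8.32 to 9.62 in DSS_KO. The lowest DSS_KO sample, at 8.32, and the highest DSS_WT sample, at 8.34, differed by less than the spread within either group. Gbp6 was dimmer and ran from 4.80 to 5.54, from 5.02 to 7.33, from 5.80 to 6.81 and from 6.82 to 8.26 in the same 4 groups. Its second probe was detected on 0 of 4 Naive_WT arrays and on 5 of 5 arrays of each DSS group.

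The remaining members were at background. Gbp4, a GBP encoded on chromosome 5, was detected on 1 of 18 arrays and its values lay between 4.30 and 4.91. Iigp1, a vacuole-coating IRG, was detected on 0 of 18 arrays and its values lay between 4.29 and 4.69. Each is read by 1 probe of its symbol on this array, so a low signal may also come from a probe that binds poorly, and whether the genes are expressed was not testable at this sensitivity. The Iigp1 probe shares a run of 25 bases with a probe labelled AW111922, whose values are not given here.

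**Figure D2:**
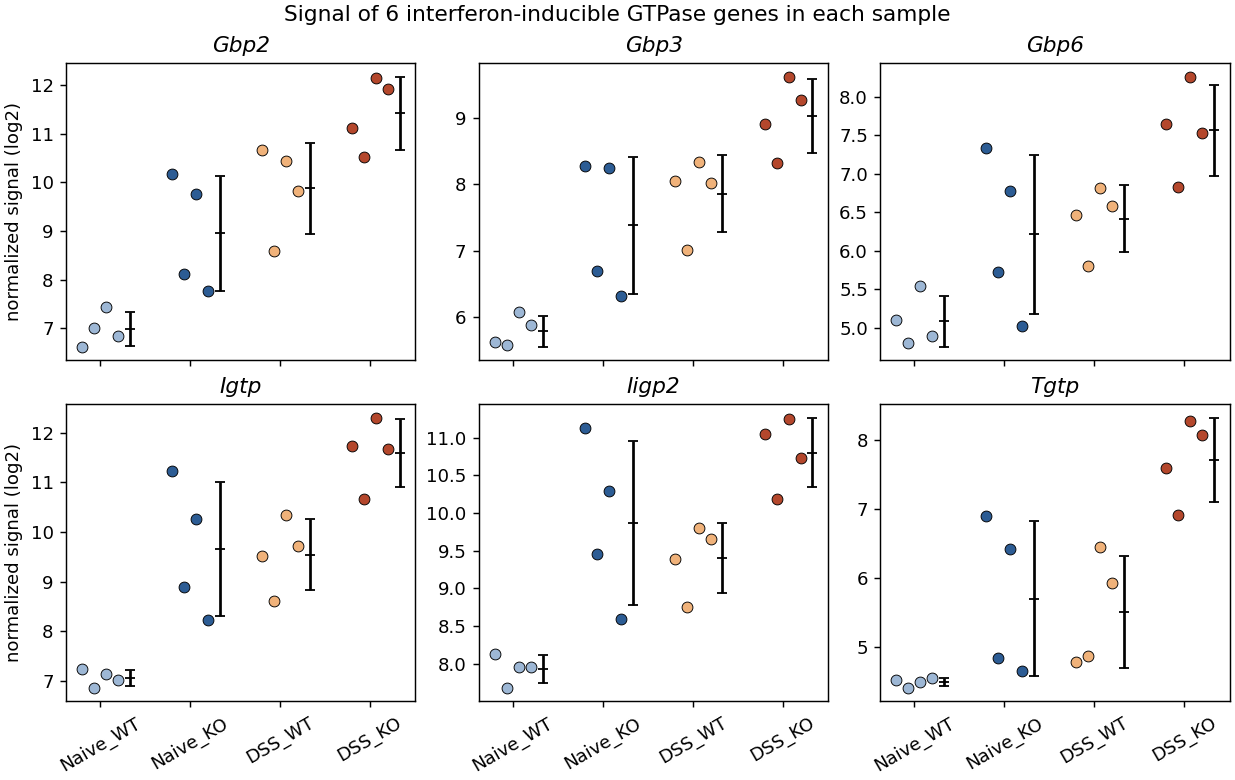
Normalized signal (log2, y axis, scaled per panel) of 6 genes in each of the 4 samples of Naive_WT, Naive_KO, DSS_WT and DSS_KO; points are samples in replicate order and bars are mean ± SD. Naive_WT is tight and lowest, DSS_KO is highest, and in Naive_KO replicates 13 and 15 lie above 14 and 16 in every panel.

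Whether loss of Mbd2 alters what colon epithelium expresses without injury is addressed by Naive_KO against Naive_WT. All 10 probes had higher means in Naive_KO, and the 5 genes detected in Naive_WT differed by 1.13 to 2.59 on the log2 scale. Igtp rose 6.04-fold (log2 fold change 2.59 ± 0.508, SE, limma adjusted p = 0.0096) and was the 1 probe of 10 called at the study's thresholds, an adjusted p under 0.01 and a log2 fold change of 1 or more, against 0.401% of all 21938 tested probes called higher. At an adjusted p under 0.05, 5 of 10 were higher against 2.43% of all: Igtp, Iigp2 (1.94, adjusted p = 0.0115), Gbp2 (1.97, adjusted p = 0.0387) and both Gbp3 probes (1.60 and 1.63, adjusted p = 0.032 and 0.0435). In the 24 alternatives that changed 1 step or left out 1 replicate, Igtp stayed under 0.05 in 24, Iigp2 in 23, Gbp3 in 15 and Gbp2 in 14, and leaving out any 1 Naive_WT replicate or Naive_KO replicate 13 or 15 took both Gbp2 and Gbp3 above it, as leaving out DSS_WT replicate 4 did for Gbp2. The remaining genes did not pass, Gbp6 among them at 1.13 (95% confidence interval 0.28 to 1.97, adjusted p = 0.107). Tgtp did not pass either (adjusted p = 0.132), and because it was undetected in Naive_WT its mean in Naive_KO is given as at least 1.74-fold higher, taking the dimmest detected probe of each array as the limit. In 6 of 10 probes every Naive_KO sample lay above every Naive_WT sample, as in 6.71% of all tested probes. The median over the 10 probes was 1.41 (1.36 with 2 probes undetected in Naive_WT at their limits), and that over all tested probes was -0.0011. Without background correction the 5 genes differed by 0.41 to 1.93. Myeloid and B cell markers varied with the GTPases among the Naive_KO samples, as given below. The mean of the endothelial markers was lower in Naive_KO without overlap, although 1 of the 9, Esam, passed an adjusted p under 0.05 (0.0263). Of the 9 myeloid markers 1 was higher in Naive_KO at that threshold, Csf1r (0.67, adjusted p = 0.0486). The part of these cells in the differences was not tested. The Igtp call was lost when any 1 Naive_WT replicate or Naive_KO replicate 13, 14 or 15 was left out, with a log2 fold change of 2.07 to 2.84 and an adjusted p of at most 0.0339, and also without DSS_WT replicate 1 or 4 or DSS_KO replicate 5 or 8. Without Naive_KO replicate 16 there were 3 called probes, and without DSS_WT replicate 2 there were 2.

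How the epithelium of Mbd2KO mice differs during colitis is addressed by DSS_KO against DSS_WT. Again all 10 probes had higher means in the Mbd2KO samples, and the 6 genes differed by 1.15 to 2.21. Of the 10 probes 0 were called at the study's thresholds, where 0.501% of all tested probes were called higher, although 9 had an unadjusted limma p under 0.05, against 22.2% of all tested probes. The 9 include the second Gbp2 probe, and that probe passed the detection filter only through DSS_KO. At an adjusted p under 0.05 the 3 IRG genes were higher, 3 of 10 probes against 2.46% of all: Tgtp, detected on 3 of 5 DSS_WT arrays, 4.64-fold (2.21 ± 0.463, SE, adjusted p = 0.0115), Igtp 4.13-fold (2.05 ± 0.508, SE, adjusted p = 0.0268) and Iigp2 2.65-fold (1.40 ± 0.393, SE, adjusted p = 0.0467). Of these Tgtp stayed under 0.05 in all 24 alternatives, Igtp in 18 and Iigp2 in 10. Without DSS_WT replicate 2 or 4 or DSS_KO replicate 5, 7 or 8, neither Igtp (adjusted p of at most 0.098) nor Iigp2 (at most 0.154) passed, and Iigp2 also did not pass without DSS_WT replicate 1, Naive_KO replicate 14 or any 1 Naive_WT replicate. The GBP genes did not pass, with Gbp2 at 1.55 (0.44 to 2.65, adjusted p = 0.0906), Gbp3 at 1.17 (0.32 to 2.03, adjusted p = 0.0975) and Gbp6 at 1.15 (0.30 to 2.00, adjusted p = 0.0998). Whether IRG and GBP genes differ in their response was not tested, and their intervals overlap. In 5 of 10 probes the groups did not overlap, those of Igtp, Iigp2, Tgtp and both of Gbp6, as in 6.43% of all tested probes. The median over the 10 probes was 1.18, against -0.0034 over all. Without background correction the 6 genes differed by 0.61 to 1.88, and Tgtp by 1.01. Markers of smooth muscle and endothelium were lower in DSS_KO, with no overlap of their means per sample: at an adjusted p under 0.05, 5 of 5 smooth muscle markers (3 of them called lower, Myh11, Tagln and Actg2) and 7 of 9 endothelial markers (4 called lower, Tek, Emcn, Eng and Esam) were lower. So were 2 of 7 T and NK cell markers, Cd3g (-0.45, adjusted p = 0.049) and Klrd1 (-0.52, adjusted p = 0.0301), and 1 of 7 fibroblast markers, Lum (-0.89, adjusted p = 0.0325), while 0 of 9 myeloid markers passed. Their part in the GTPase differences was not tested. Tgtp was called when DSS_WT replicate 3 was left out (2.53, adjusted p = 0.00787), and also without Naive_KO replicate 13 or 16, which enter only the shared estimate of spread.

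DSS itself was compared with no treatment first in WT mice. In DSS_WT against Naive_WT, Gbp2 rose 7.44-fold (2.90 ± 0.522, SE, adjusted p = 0.00251), Igtp 5.61-fold (2.49 ± 0.508, SE, adjusted p = 0.00575) and Gbp3 4.19-fold (2.07 ± 0.405, SE, adjusted p = 0.00448). These were 4 called probes of 10, Gbp3 with both of its probes, against 1.34% of all tested probes called higher. At an adjusted p under 0.05, 6 of 10 were higher against 5.71% of all, with Iigp2 (1.47, adjusted p = 0.0261) and Gbp6 (1.33, adjusted p = 0.0437) added. Gbp2, Gbp3 and Igtp stayed under 0.05 in all 24 alternatives, Iigp2 in 17 and Gbp6 in 13. Without DSS_WT replicate 3 or 4 or Naive_WT replicate 10 or 12 neither Iigp2 nor Gbp6 passed, without Naive_WT replicate 11 Iigp2 did not, and without DSS_WT replicate 1, DSS_KO replicate 5 or 8 or Naive_WT replicate 9 Gbp6 did not. Tgtp did not pass (adjusted p = 0.173) and was at least 1.52-fold over its undetected level in Naive_WT. In 8 of 10 probes the groups did not overlap, against 8.87% of all tested probes. Without background correction the 5 genes detected in Naive_WT differed by 0.44 to 2.14, and 0 probes were called. Without DSS_WT replicate 3, 0 of the 10 probes were called, and without DSS_WT replicate 4 or Naive_WT replicate 9 or 10, 1 was; without DSS_WT replicate 1 or Naive_WT replicate 12, 2 were. Markers of other cells were higher in DSS_WT too, at the levels given above: at an adjusted p under 0.05, 8 of 9 myeloid markers (all 8 called), 2 of 4 neutrophil markers (0 called), 3 of 7 T and NK cell markers (0 called), 4 of 7 fibroblast markers (2 called, Lum and Pdgfra) and 3 of 9 endothelial markers (0 called). Their part in these differences was not tested.

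The effect of DSS was then examined in Mbd2KO mice. In DSS_KO against Naive_KO, Gbp2 rose 5.55-fold (2.47 ± 0.522, SE, adjusted p = 0.00784), the 1 called probe of 10 against 1.07% of all called higher. At an adjusted p under 0.05 7 of 10 probes were higher against 4.9% of all: both Gbp2 probes, both Gbp3 probes (1.64 and 1.89), Gbp6 (1.36, adjusted p = 0.0424), Igtp (1.94, adjusted p = 0.0237) and Tgtp (2.02, adjusted p = 0.0121). The second Gbp2 probe, undetected in Naive_KO, passed the detection filter only through DSS_KO, so its place among the 7 carries no weight. Its mean in DSS_KO was at least 1.76-fold higher. Gbp2 and Tgtp, the latter detected on 2 of 4 Naive_KO arrays, stayed under 0.05 in all 24 alternatives, Gbp3 in 20, Igtp in 17 and Gbp6 in 13. Without Naive_KO replicate 14 or 16 or DSS_KO replicate 8 none of Gbp3, Igtp and Gbp6 passed, without DSS_KO replicate 5 or 7 Igtp and Gbp6 did not, and without DSS_WT replicate 1 or 4 or Naive_WT replicate 9 or 10 Gbp6 did not. Iigp2 differed by 0.93 (0.10 to 1.76, adjusted p = 0.152). The groups did not overlap in 3 of 10 probes, those of Gbp2, Gbp3 and Tgtp, against 7.63% of all. Without background correction the 6 genes differed by 0.64 to 2.18, and 0 probes were called. Without Naive_KO replicate 13 there were 7 called probes, and without replicate 14 or 16 there were 0. There were also 0 without DSS_KO replicate 5, 7 or 8, DSS_WT replicate 4 or Naive_WT replicate 9 or 10, and 2 without DSS_KO replicate 6 or DSS_WT replicate 2. Myeloid markers were higher in DSS_KO without overlap, and at an adjusted p under 0.05, 8 of 9 of them (4 called, Tyrobp, Fcer1g, Lyz2 and Aif1), 2 of 4 neutrophil markers (S100a8 and S100a9, both called) and 1 of 7 T and NK cell markers (Prf1, called) were higher. Their part in these differences was not tested.

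The response to DSS did not differ detectably between genotypes. The interaction, the DSS effect in Mbd2KO minus that in WT mice, was called for 0 of 10 probes (0% of all tested probes), and 0 had an unadjusted limma p under 0.05, against 10.7% of all. For Tgtp, undetected in Naive_WT, no value is given. It was -0.55 for Igtp (-2.07 to 0.97, adjusted p = 0.832), -0.54 for Iigp2 (-1.71 to 0.64) and -0.42 for Gbp2 (-1.98 to 1.14). These intervals are wide, and they include differences of more than 1 log2 unit in both directions for Gbp2 and Gbp6 (-1.17 to 1.22).

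**Figure D3:**
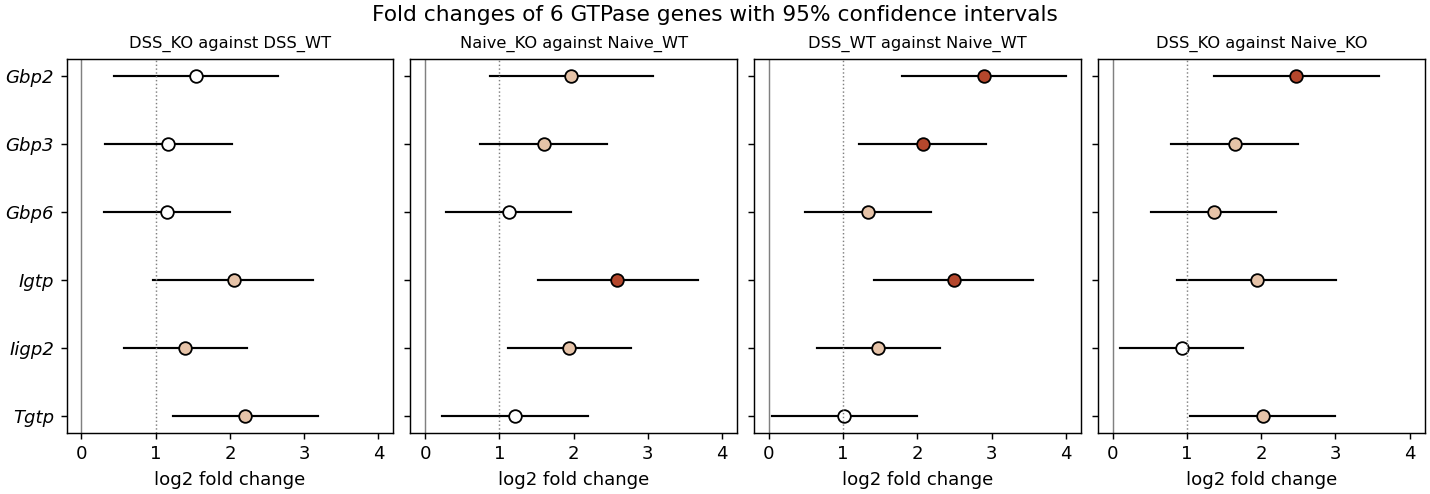
Log2 fold change (x axis) of 6 genes in 4 comparisons, with limma 95% confidence intervals; dark points were called at the study's thresholds, light points had an adjusted p under 0.05, and open points did not pass. Dotted lines mark 1 on the log2 scale. Every point lies above 0, and the points of Tgtp against Naive_WT rest on a background level there.

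The naive Mbd2KO samples and the WT samples with DSS, the neighbours in the middle of the order, did not differ past the test for any tested member. In Naive_KO against DSS_WT 0 of 10 probes were called in either direction, against 2.57% of all (0.925% higher), and 0 of 10 passed an adjusted p under 0.05, against 17% of all (8.31% higher). None had an unadjusted limma p under 0.05, against 33.1% of all. The group means of Gbp2, Gbp3 and Gbp6 were lower in Naive_KO by 0.93, 0.47 and 0.21, whereas those of Iigp2, Tgtp and Igtp were higher by 0.47, 0.20 and 0.11. Tgtp was detected on 2 of 4 Naive_KO and 3 of 5 DSS_WT arrays, so its difference rests partly on background values. The interval for Gbp2 ran from -2.03 to 0.18 and that for Igtp from -0.97 to 1.18, and the signs for Gbp6, Igtp and Tgtp changed when single replicates were left out.

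The 6 genes varied together within groups as well as between them. Naive_KO held the widest spread: replicate 13 was the highest for 6 of 6 genes and replicate 16 the lowest for 6 of 6, and replicates 13 and 15 were the 2 highest for every gene. In Igtp, replicates 13 and 16 of this 1 group lay 11.23 against 8.22, a gap larger than the difference between the group means of Naive_KO and Naive_WT. DSS_KO replicate 7 was the highest for 6 of 6 genes and replicate 6 the lowest for 6 of 6. DSS_WT replicate 2 was the lowest for 5 of 6 genes and replicate 3 the highest for 5 of 6. Across the 16 samples the correlation between pairs of these genes (Pearson's r) was 0.892 to 0.989, and after subtraction of each group's mean it was 0.775 to 0.98, with Igtp and Iigp2 the closest pair. The genes share the same arrays and normalization, so these values describe the samples and carry no test.

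**Figure D4:**
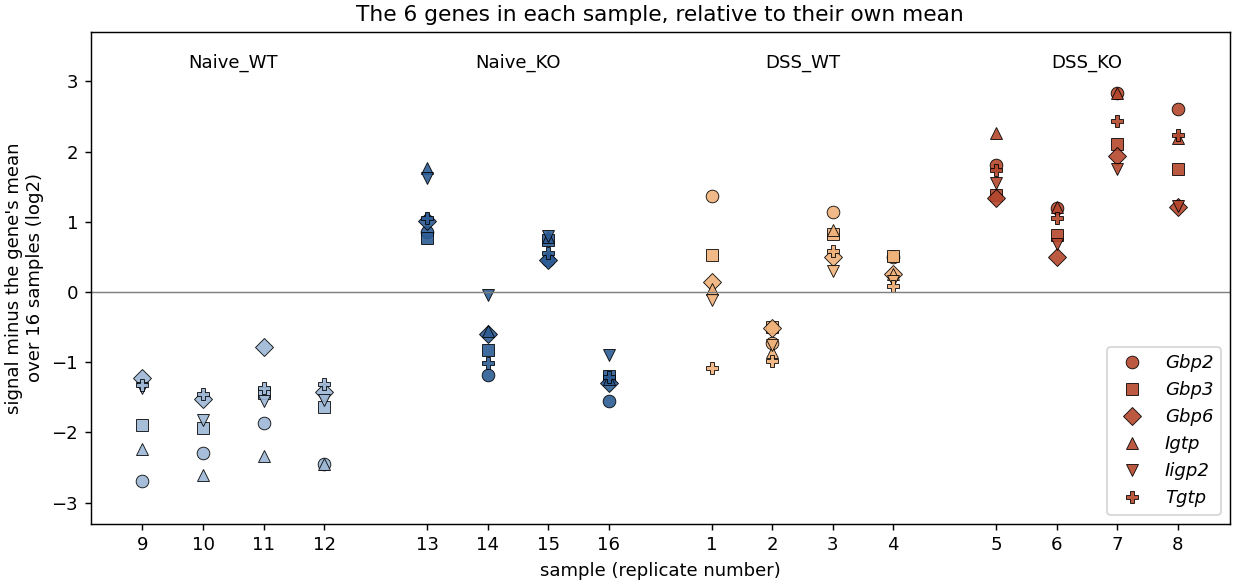
Signal of each gene minus its own mean over 16 samples (log2, y axis) in each sample (x axis, replicate numbers of the labels, by group); symbols are genes and colours are groups. The symbols move up and down together from sample to sample, with Naive_KO replicates 13 and 15 above and 14 and 16 below their group's middle.

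The means of the myeloid markers in Naive_KO replicates 13, 14, 15 and 16 were 7.47, 6.85, 7.13 and 6.43, the same order as that of the GTPases, and those of the B and plasma cell markers (3 of 6 tested) were 6.41, 5.88, 6.03 and 5.15, in that order too. In DSS_KO the myeloid means lay within 8.22 to 8.31 while Igtp ran from 10.67 to 12.30, and the B and plasma cell means of replicates 5 to 8 were 6.57, 5.66, 6.53 and 6.00, lowest in replicate 6 like the GTPases. In DSS_WT the highest myeloid mean, 8.47, was that of replicate 3, the sample highest for 5 of 6 GTPases, and the lowest was that of replicate 1, not of replicate 2. Their part in the GTPase levels was not tested.

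Relatives of the members were examined as a list of other interferon-inducible GTPases, of which 9 genes were tested. In DSS_KO against DSS_WT 3 of the 9 were called higher and 0 lower, against 0.501% of all tested probes called higher, and 6 were higher at an adjusted p under 0.05, against 2.46% of all, with a list median of 1.00 against -0.0034 over all probes. The called genes were Ifi47, an IRG of the GKS type (2.03, adjusted p = 0.00942), Gbp10 (1.39, adjusted p = 0.00314) and Gvin1, a very large interferon-inducible GTPase (1.32, adjusted p = 0.00259). Gbp2b, listed on the array as Gbp1, differed by 1.00 with an adjusted p of 0.00418 and fell just short of the fold limit before rounding. Gm12250, which encodes the IRG known as Irgb10, differed most (2.15, adjusted p = 0.017) without passing the study's threshold. Gbp5, which takes part in inflammasome assembly, was dim, and its brighter probe was detected on 5 of 5 DSS_KO arrays and on 0 arrays of the other groups. Gbp2b was detected on 5 of 5 DSS_KO, 1 of 5 DSS_WT, 1 of 4 Naive_KO and 0 of 4 Naive_WT arrays. Gbp5 and Gbp2b passed the detection filter only through DSS_KO, so their place among the 6 and in the list median carries no weight.

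In naive mice most of these relatives did not pass the test, and some were at background there. Gbp5 was detected on 0 naive arrays, Gbp2b on 0 of 4 Naive_WT and 1 of 4 Naive_KO, and Mx1 on 0 of 4 Naive_WT arrays. For these a genotype difference without DSS could have been missed. In Naive_KO against Naive_WT 1 of the 9 was called higher against 0.401% of all, Ifi47 (2.64, adjusted p = 0.00187), and with Gm12250 (1.77, adjusted p = 0.0437) 2 were higher at an adjusted p under 0.05 against 2.43% of all. Gbp10 (0.50, adjusted p = 0.209), Gvin1 (0.25, adjusted p = 0.508) and Gbp2b (0.26, adjusted p = 0.394) did not pass, and the list median was 0.45. The interaction did not pass for Gvin1, Gbp10 or Gbp2b (adjusted p = 0.232, 0.329 and 0.28), so their genotype differences with and without DSS were not shown to differ. For Gbp2b that test rests on a background level in Naive_WT. Irgm1, the third regulator, is read by 3 tested probes that disagree: the brightest, at group means of 13.04 to 13.93, differed by 0.17 in DSS_KO against DSS_WT, whereas the other probes differed by 1.09 and 0.91 (adjusted p = 0.0426 and 0.0312). Mx1 and Mx2, antiviral GTPases induced mainly by type I and III interferons, differed by 0.27 and 0.23 with DSS and by 0.45 each without it, and neither passed. Mx1 was undetected in both WT groups and detected on 2 of 4 Naive_KO and 3 of 5 DSS_KO arrays, so the size of its differences is not known. Gbp8, Gbp9, Gbp11 and Irgc1 were on the array but did not pass the detection filter.

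**Figure D5:**
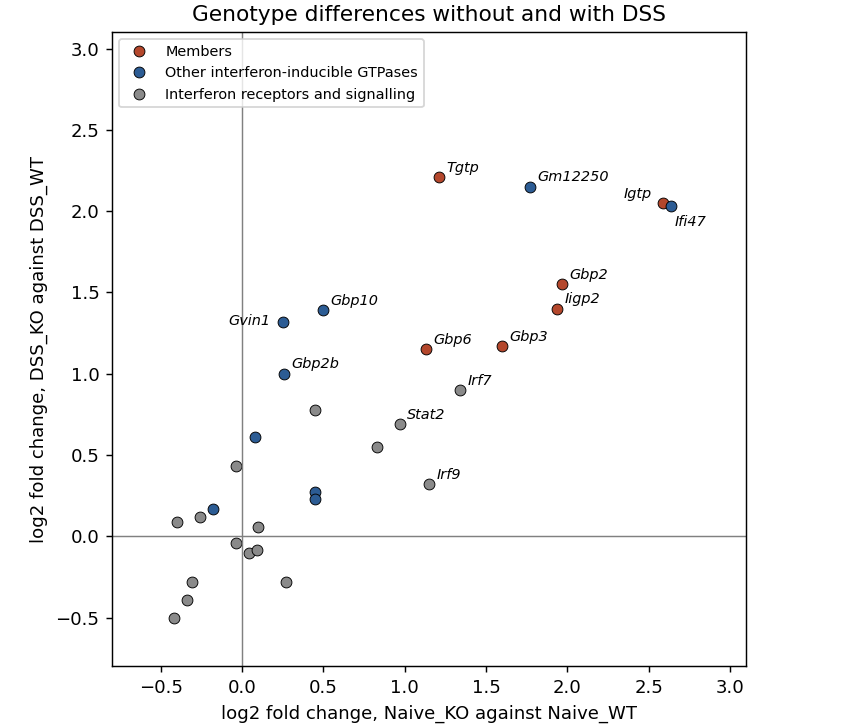
Log2 fold change of Naive_KO against Naive_WT (x axis) and of DSS_KO against DSS_WT (y axis), which share no samples, for the brightest probe of each member, of 9 other interferon-inducible GTPases and of 16 interferon receptors and signalling genes. The members lie at 1.13 or more on both axes, with the x value of Tgtp resting on a background level in Naive_WT, and Gvin1, Gbp10 and Gbp2b lie at 1.00 to 1.39 on the y axis and 0.25 to 0.50 on the x axis, a gap that did not pass the interaction test. Gbp2b, Gbp5 and Mx1 were undetected in Naive_WT too, and Gbp5 and Mx1 also in DSS_WT.

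Among 16 tested interferon receptors and signalling genes, 2 were called higher in Naive_KO against Naive_WT, against 0.401% of all tested probes, and 4 were higher at an adjusted p under 0.05, against 2.43% of all. The called genes were Irf7 (1.34, adjusted p = 0.000603) and Irf9 (1.15, adjusted p = 0.0017), factors of the type I interferon response, and Stat2, a partner of Irf9, was just under the fold limit (0.97, adjusted p = 0.00539). Irf1 differed by 0.83 on its brightest probe (adjusted p = 0.0174), and 1 of its 4 other probes passed the study's thresholds (1.12, adjusted p = 0.00121). In DSS_KO against DSS_WT 0 of 16 were called, against 0.501% of all called higher, and 3 were higher at an adjusted p under 0.05, against 2.46% of all: Irf8 (0.78, adjusted p = 0.00703), Irf7 (0.90, adjusted p = 0.00923) and Stat2 (0.69, adjusted p = 0.0293). Irf1 did not pass there on its brightest probe (0.55, adjusted p = 0.0888). Its other probes differed by 1.72, 1.65, 1.17 and 0.56 (adjusted p = 0.0435, 0.0386, 0.0663 and 0.0531). The receptor genes of interferon gamma did not pass in either genotype comparison, with Ifngr1 at 0.041 and -0.10 and Ifngr2 at -0.40 and 0.086 in naive and DSS-treated mice. The list medians were 0.066 in naive and 0.071 in DSS-treated mice.

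The ligands were close to background. Ifng, the gene of interferon gamma, has 2 probes, of which 1 was tested: it was detected on 0 of 4 Naive_WT, 1 of 4 Naive_KO, 0 of 5 DSS_WT and 3 of 5 DSS_KO arrays, and it differed by 0.28 in DSS_KO against DSS_WT (adjusted p = 0.354) and by 0.36 in Naive_KO against Naive_WT (adjusted p = 0.213). The other Ifng probe was detected on 1 of 5 DSS_WT and 1 of 5 DSS_KO arrays and was not tested. Ifnb1, Ifnl3 and Ifna4 did not pass the detection filter. The sort excludes T cells, so these values do not describe the interferon of the tissue.

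Genes that act with the GTPases on vacuoles mostly did not pass the test, like most tested probes. Of 14 tested genes of autophagy conjugation and ubiquitin tagging, 0 were called in either genotype comparison. Over all tested probes 0.401% were called higher in the naive comparison and 0.501% in that with DSS, so 0 is near the share over all. In Naive_KO against Naive_WT Traf6, a ubiquitin ligase, was higher (0.48, adjusted p = 0.0159) and Gabarapl2, an autophagy conjugate, was lower (fell by 0.60, adjusted p = 0.0319), and in DSS_KO against DSS_WT 0 of 14 passed an adjusted p under 0.05. Atg7 and Sqstm1 were lower by 0.62 and 0.54 in DSS_KO (adjusted p = 0.0624 and 0.105), and Trim21 was higher by 0.57 (adjusted p = 0.0699). Of 8 tested inflammasome partners 0 were called in either genotype comparison, which is again near the shares of 0.401% and 0.501% called higher over all. Il18, an epithelial cytokine released by inflammasomes, fell by 0.87 in DSS_KO against DSS_WT (adjusted p = 0.049) and differed by -0.71 in Naive_KO against Naive_WT (adjusted p = 0.101). Pycard and Aim2 did not pass in either, at 0.55 and 0.26 with DSS (adjusted p = 0.19 and 0.436) and at -0.40 and -0.34 without it (adjusted p = 0.34 and 0.27). Il1b, a myeloid cytokine, rose with DSS in both genotypes (2.56, adjusted p = 0.000464 in WT and 2.12, adjusted p = 0.00159 in Mbd2KO) and differed by 0.032 between them under DSS.

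Outside the members and lists, the genes whose profile over the 16 samples was most like the mean profile of the 6 genes were Parp14 (r = 0.982), Tapbpl (0.977), Isg15 (0.975), Cxcl9 (0.971), Psmb10 (0.97), Mlkl (0.966), Xdh (0.964), LOC380706 (0.962), Psmb9 (0.962) and Tap1 (0.959). Psmb9 and Psmb10 encode subunits of the immunoproteasome, Tap1 a transporter of peptides for MHC class I, Cxcl9 a chemokine that draws T cells, and Mlkl the effector of necroptosis. They were chosen for likeness over these same samples, so their group differences follow from the choice and are given as a description: Tap1, Psmb9 and Parp14 differed by 2.44, 2.21 and 1.23 in Naive_KO against Naive_WT, and Psmb9 by 1.81 in DSS_KO against DSS_WT. Cxcl9 had the widest span of the 10, with group means of 5.23 in Naive_WT, 7.84 in Naive_KO, 8.36 in DSS_WT and 10.28 in DSS_KO.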

How the data were processed

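Total RNA of FACS-sorted colon epithelium was labelled and hybridised to 18 Illumina arrays. Per the file headers, the scanner software wrote values without normalization: each deposited signal is the mean intensity of a probe's beads on a linear scale, and the deposited detection p-value is the share of the array's 936 negative controls brighter than the probe. The submitters' processing notes name lumi and limma, but no normalized table was used here. Each member signal rests on 22 to 56 beads, whose number limits its precision. A further 36 per-array columns (array number and array SD) were not used.

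The neqc function (limma 3.58.1, R 4.3.3, offset 16) corrected the background, normalized by quantiles and took log2. A probe was tested when 4 or more arrays detected it at a p-value under 0.05 (21938 of 45281). Arrays 4R and 5R were averaged with 4 and 5, from which they differed less (SD of log2 differences 0.194 and 0.236) than other arrays of their groups did (0.287 to 0.482), which left 16 samples. A replicate may pool mice, and which replicates shared an experiment is not given in the sources used here, so p-values measure the spread between these samples. Group means were fitted jointly to all probes with limma, two-sided, with Benjamini-Hochberg adjustment over all 21938 within a contrast. The code was also run on simulated data in which probes vary independently, unlike here, so that run checks the code and not the p-values. A probe was called at an adjusted p under 0.01 and an absolute log2 fold change of 1 or more, as in the study's methods. Contrasts of 1 group share its samples with the other contrasts of that group.

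The text names every member, up to 3 genes per list with the largest difference in each genotype comparison (all genes in lists of up to 6), and the 10 genes most like the members; further genes were named after their values were seen, and 1 further gene of the signalling list was kept out of its counts and is not reported here. Members and lists were chosen with earlier results of these data known. Current symbols come from a RefSeq table (GRCm38.p6) by Entrez identifier, and promoter windows from RefSeq for GRCm38.p6: all 6 tested genes matched. Alternatives covered background correction, scaling, filter, repeat arrays, array weights, the groups fitted and each replicate left out.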

Additional observations from a re-analysis of the deposited data

Results flagged for a closer look

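The second, dim Gbp2 probe was flagged in DSS_KO: replicate 6, at 4.70, lay far below the other 3 samples, which ran from 6.05 to 6.23. It was 1 of 40 sets of 4 values examined, and chance flags about 1 in 20. Replicate 6 was also the lowest DSS_KO sample for all 6 tested genes on their brightest probes, without being flagged there. Without it, this probe passed the thresholds in DSS_KO against DSS_WT (1.30, adjusted p = 0.00481, against 0.94 and 0.0691 with it). The probe had passed the detection filter only through DSS_KO, so this carries no weight.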

How the results depend on the processing

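Calls sat close to the threshold, and counts of called probes moved while directions in the 4 main comparisons did not change in any of the 24 alternatives. In DSS_KO against DSS_WT, 0 called probes became 1 with median scaling and 2 with all 18 arrays as separate replicates, and it ranged from 0 to 1 when 1 replicate was left out. In Naive_KO against Naive_WT, 1 became 0 without background correction, with median scaling, with no filter, with a stricter filter and with a fit to the compared groups alone, and 2 with 18 arrays or with array weights, and it ranged from 0 to 3 when 1 replicate was left out. In DSS_WT against Naive_WT, 4 became 0 without background correction and 1 with no filter, 5 with 18 arrays and 6 with the compared groups alone, and ranged from 0 to 5 when 1 replicate was left out. In DSS_KO against Naive_KO, 1 became 0 without background correction, with no filter and with the compared groups alone, 6 with 18 arrays and 4 with array weights, and ranged from 0 to 7 when 1 replicate was left out. Both other contrasts stayed at 0. Without background correction fold changes were smaller, by over 1.5 times for some genes in each main comparison: Tgtp went from 2.21 to 1.01 in DSS_KO against DSS_WT and from 2.02 to 0.92 in DSS_KO against Naive_KO, Gbp3 from 1.60 to 0.79 in Naive_KO against Naive_WT and from 2.07 to 1.04 in DSS_WT against Naive_WT.

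Reversals occurred only among small differences. Without background correction the interaction turned to 0.04 for Gbp2 and 0.078 for Gbp3. With array weights it turned to -0.10 for Gbp6, and the difference of Naive_KO from DSS_WT turned to -0.18 for Igtp and -0.17 for Tgtp. When 1 replicate was left out, the interaction of Gbp6 ranged from -0.37 to 0.40, and Naive_KO against DSS_WT ranged from -0.58 to 0.19 for Gbp6, -0.42 to 0.58 for Igtp and -0.20 to 0.55 for Tgtp. The cause was not tested. The interaction needs all groups, so it could not be fitted to the compared groups alone.

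No paired analysis was possible because the labels number replicates through all groups, without a repeat. Signal over background limits Tgtp, Gbp6, Gbp4 and Iigp1 most, and 4 samples a group limit every test.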
